A study of Drosophila melanogaster with 8 samples.

Results

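A set of 8 genes of the heat shock and chaperone families of the fly Drosophila melanogaster was followed through 8 long-read cDNA libraries. The set holds 5 small heat shock genes (Hsp22, Hsp23, Hsp26, Hsp27 and l(2)efl) and 3 large chaperone genes (Hsp83, Hsc70-3 and Hsc70-4), out of 14292 genes in all. Every annotated transcript of these genes was taken, 24 of the 31089 transcripts in the table, and its estimated counts were summed per gene. The libraries came from wild type Oregon R flies reared at 25 °C with no heat shock named in the labels. They cover female eyes, male eyes, female heads, male heads, female salivary glands, male salivary glands, ovaries and testes, with 1 library a group and therefore no replicate of any group. The libraries were enriched by amplification of the ends of transcripts of quick-to-court (qtc), and the series title poses the question of sex-specific splicing of that gene. The adults were taken 5 to 7 days after hatching. How the ovaries and salivary glands were dissected, from which stage the glands came and how many animals were pooled are not given in the sources used here.

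Molecular chaperones bind proteins that are not yet folded, or have lost their fold, and keep them from clumping. Small heat shock proteins share the alpha-crystallin domain and hold unfolded proteins without using ATP, and large chaperones of the Hsp70 and Hsp90 families refold or mature their clients in cycles driven by ATP. Many heat shock genes are switched on by heat shock factor under stress, while their cognates, written Hsc, are made all the time. In flies several small heat shock genes lie side by side at the 67B region and are also transcribed during development and in the germline without any heat.

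Hsp22, Hsp23, Hsp26 and Hsp27 lie within 12764 bases of chromosome arm 3L (build BDGP6). Hsp22, which encodes a small heat shock protein of mitochondria, is at 9372931 to 9374964 on the plus strand. Hsp26, whose protein is cytosolic, is at 9376418 to 9377427 on the minus strand. Hsp23, another cytosolic member, is at 9381882 to 9382765, and Hsp27, whose protein is found in the nucleus, is at 9384063 to 9385694, both on the plus strand. The gene l(2)efl, a relative of vertebrate alpha B crystallin, lies apart from them on arm 2R at 23684651 to 23685543, on the minus strand and in 3 exons. The annotated small proteins are 174 to 213 codons long.

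Among the large chaperones, Hsp83 encodes the cytosolic Hsp90 of flies and lies on 3L at 3192969 to 3197059, on the plus strand. Hsc70-3, the Hsp70 of the endoplasmic reticulum known as BiP, lies on X at 11801696 to 11807117, on the minus strand. Hsc70-4, the main cytosolic Hsc70, which also strips clathrin from vesicles, lies on 3R at 15242687 to 15246614, on the plus strand. Their proteins are 651 to 717 codons long. All 2034 bases of Hsp22 overlap CG4456 on the same strand, and all 893 bases of l(2)efl lie within St3 on the opposite strand. St3 held at most 1 count in any library, while CG4456 held 17 counts in testes and at most 2 elsewhere, so reads of Hsp22 and CG4456 may have been divided between them.

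The libraries held 88471 (testes) to 152222 (female salivary glands) estimated counts, so that 3 counts, the limit that a count of 0 allows, stood for 33.9 to 19.7 counts per 1000000 (CPM). Ratios of 2 libraries by library total carry exact 95% intervals, and the plot of levels by library shows those of single values. They cover counting error only, since reads were amplified and carry no molecular identifier. Markers of the labelled tissues were present. Phototransduction genes took 5.05% to 18.3% of the counts in eyes and heads, eggshell genes 15.9% in ovaries, spermatogenesis genes 0.777% in testes, and salivary glue genes, which larval glands make, 2.55% and 2.87% in the salivary gland libraries. Fat body and larval serum genes took a further 17.8% of the counts in female and 17.3% in male salivary glands. Some libraries held markers that their labels do not name. In female eyes eggshell genes took 8.35% of counts, with 9 of 16 above 0, and digestive enzyme genes 0.537%, with 16 of 20 above 0, against 0.0238% and 0.00238% in male eyes. In male eyes salivary glue genes took 0.0937%, with 10 of 12 above 0, against 0.00348% in female eyes. Fat body and larval serum genes took 1.3% in male eyes, with 12 of 12 above 0 and 1378 of the 1637 counts from Lsp2, against 0.549% in female eyes. In female heads spermatogenesis genes took 0.363%, with 6 of 18 above 0 and 458 of the 486 counts from Mst98Ca, against 0.00148% in male heads. In bulk tissue, fewer cells of a type and less RNA per cell cannot be told apart.

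Hsp22 was close to the limit of detection everywhere. Its counts were 2 in female eyes, 1 in female heads, 2 in male heads, 2 in ovaries, and 0 in male eyes, both salivary gland libraries and testes. No order of tissues could be read at this depth, and the gene passed the filter of no fit.

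Hsp23 was counted almost wholly in the salivary gland libraries. It reached 401 CPM in female and 451 CPM in male salivary glands, from 61 and 60 counts. It held 1 count in female eyes, 2 in male eyes, 1 in female heads, 2 in male heads, 0 in ovaries and 3 in testes. The salivary gland libraries did not overlap with any other, and the share of all genes for which this holds was not computed. These libraries held the fat body and larval serum genes at 17.8% and 17.3% beside the glue genes at 2.87% and 2.55%. The part of fat body, and of a stage that is not given, in the Hsp23, Hsp27 and Hsc70-3 values of the glands was not tested. Outside the glands, none of the 6 libraries differed from its neighbour in the order of Hsp23 levels beyond counting error.

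Hsp26 showed another pattern, with its counts in the ovaries, the female eyes and the testes. It stood at 549 CPM in ovaries (83 counts), 237 CPM in female eyes (34 counts) and 147 CPM in testes (13 counts). It was at 3 counts in male eyes, 2 in each salivary gland library, 1 in female heads and 0 in male heads. Ovaries stood above female eyes beyond counting error, while female eyes and testes did not differ from each other. Both libraries of highest Hsp26 level were also the only ones of the 8 in which eggshell genes passed 1% of counts. The eggshell share was 15.9% in ovaries and 8.35% in female eyes, against 0.0588% in testes and 0.0151% to 0.0277% in the other libraries. In female eyes the eggshell list was nearly all Cp15, a chorion gene with 11807 counts. The part of ovarian RNA in the Hsp26 value of female eyes was not tested.

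**Figure D1:**
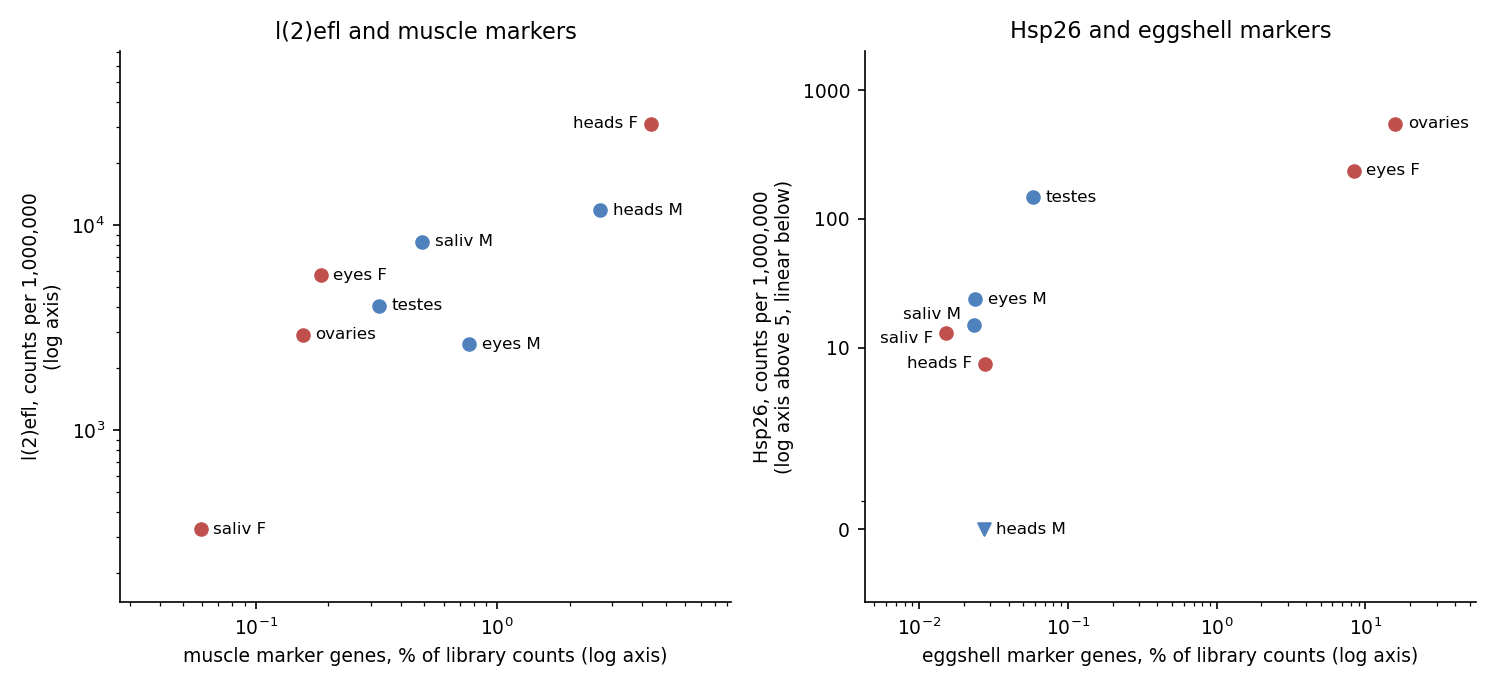
Level of l(2)efl (CPM) against the percent of library counts in 18 muscle genes, and of Hsp26 (CPM) against the percent in 16 eggshell genes, 1 point per library on log axes; the triangle marks male heads, which held 0 counts of Hsp26. Heads lie at the upper right for l(2)efl, with 31215 CPM in females and 11794 CPM in males, and ovaries and female eyes lie at the upper right for Hsp26.

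Hsp27 was the most broadly counted of the 4 genes at 67B. Its level was 1311 CPM in testes, 1051 CPM in female and 684 CPM in male salivary glands, and 609 CPM in ovaries. Eyes followed with 167 CPM in females and 79.4 CPM in males, and heads were lowest with 22.4 CPM in females and 14.8 CPM in males, from 3 and 2 counts. Testes and female salivary glands did not differ beyond counting error, nor did male salivary glands and ovaries. Every gonad and salivary gland library stood above every eye and head library, and the share of all genes with this order was not computed.

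The 67B genes thus differed from each other in where they were counted, although they are neighbours. In salivary glands Hsp23 and Hsp27 were both high while Hsp26 was at 2 counts in each library. In ovaries Hsp26 and Hsp27 were high while Hsp23 was at 0. Other small heat shock genes within or beside this interval had at most 18 counts in a library. Hsp67Bc, a further member of the family just outside the interval, reached 18 counts in male and 8 in female salivary glands and 0 to 4 elsewhere, Hsp67Ba reached 8 in male heads, and CG4461 never passed 1 count. CG4456, the gene overlapping Hsp22 and also known as Hsp67Bb, held 17 counts in testes, where Hsp26 held 13.

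**Figure D2:**
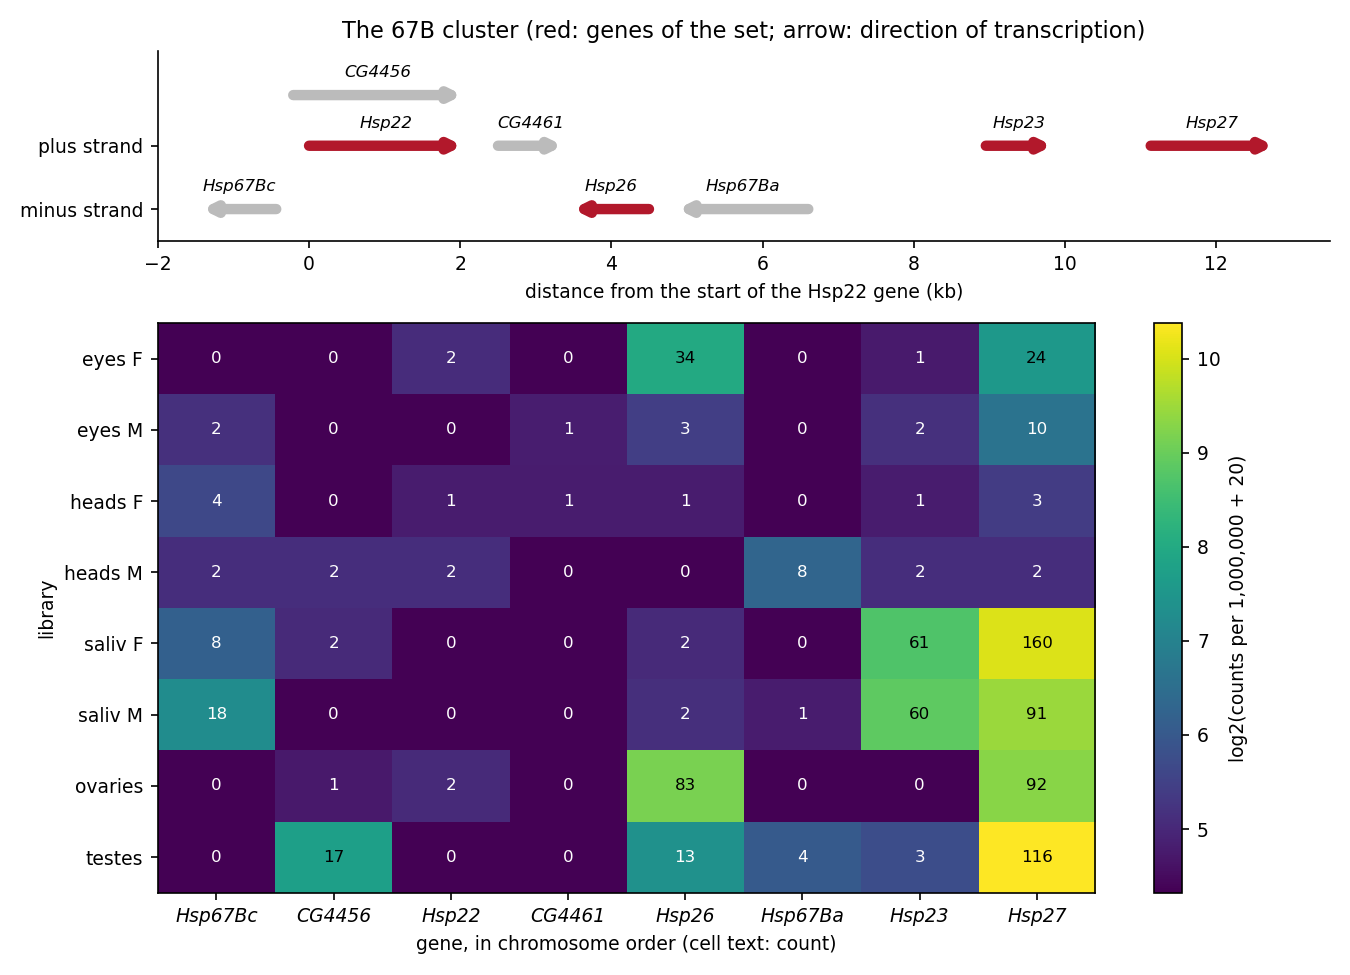
Map of the genes around the 67B heat shock genes by distance from the start of Hsp22 (kb), and below it the level of each gene in each library as log2(CPM + 20), with counts printed in the cells. Hsp23 stands out in the salivary gland rows with 61 and 60 counts, and Hsp26 in the ovary row with 83.

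The gene l(2)efl was by far the most counted member and followed an order unlike any of the 67B genes. Its level was 31215 CPM in female heads and 11794 CPM in male heads, from 4174 and 1598 counts. Male salivary glands followed with 8307 CPM, female eyes with 5686 CPM, testes with 4047 CPM, ovaries with 2917 CPM, male eyes with 2628 CPM and female salivary glands with 328 CPM. All neighbours in this order differed beyond counting error except ovaries and male eyes. The lowest library, female salivary glands, and the third highest, male salivary glands, were the same tissue in the 2 sexes.

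The summed share of muscle genes was highest in both head libraries and lowest in female salivary glands, as l(2)efl was. The order of the libraries in between differed, and in eyes the male library held more muscle and less l(2)efl than the female. The 18 muscle markers took 4.32% of counts in female heads, 2.68% in male heads, 0.765% in male eyes, 0.489% in male salivary glands, 0.324% in testes, 0.186% in female eyes, 0.157% in ovaries and 0.0591% in female salivary glands. Act57B, an actin of larval and adult muscle, led the list. It held 4410 of the 5774 muscle counts in female heads and 2590 of the 3629 in male heads. In salivary glands it held 441 counts in the male and 34 in the female library. Between 9 and 18 of the 18 genes were above 0. Not every gene followed the sum. Mhc, the myosin heavy chain of muscle, held 24 counts in male eyes against 7 in female and 15 in male heads. Mhc was at 0 in both salivary gland libraries and ovaries. The part of muscle in the l(2)efl values was not tested.

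CG14207, outside the set, was the most counted of the other small heat shock genes. It reached 23834 CPM in female heads, 10473 CPM in male heads, 16005 CPM in male and 8179 CPM in female salivary glands, 14289 CPM in ovaries, 3417 CPM in female eyes, 3048 CPM in male eyes and 2374 CPM in testes. In heads both genes were higher in the female library, CG14207 by 2.28-fold (2.14 to 2.42) and l(2)efl by 2.65-fold (2.5 to 2.81). In ovaries, by contrast, CG14207 was near its head level while l(2)efl was not.

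Hsp83 was highest in gonads and male salivary glands. It stood at 1526 CPM in testes, 1488 CPM in ovaries and 1338 CPM in male salivary glands, from 135, 225 and 178 counts, and these 3 libraries did not differ beyond counting error. Female eyes had 473 CPM, female salivary glands 434 CPM, male eyes 238 CPM, female heads 187 CPM and male heads 148 CPM. The female salivary gland library lay beside female eyes, not beside the male gland library.

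Hsc70-3 was higher in salivary glands than anywhere else, at 736 CPM in females and 549 CPM in males, from 112 and 73 counts. In the other 6 libraries it was nearly level, at 226 CPM in testes, 209 CPM in female eyes, 205 CPM in ovaries, 194 CPM in female heads, 169.8 CPM in male heads and 159 CPM in male eyes. No neighbours among these 6 differed beyond counting error.

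Hsc70-4 had the lowest total of the large chaperones, 212 counts over the 8 libraries. It was highest in female eyes at 529 CPM (76 counts) and in ovaries at 318 CPM (48 counts). Heads and male eyes lay between 135 and 221 CPM, salivary glands at 65.7 CPM in females and 75.2 CPM in males, and testes at 22.6 CPM, from 2 counts. Female eyes were above ovaries beyond counting error, and below ovaries no neighbours in the order differed.

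**Figure D3:**
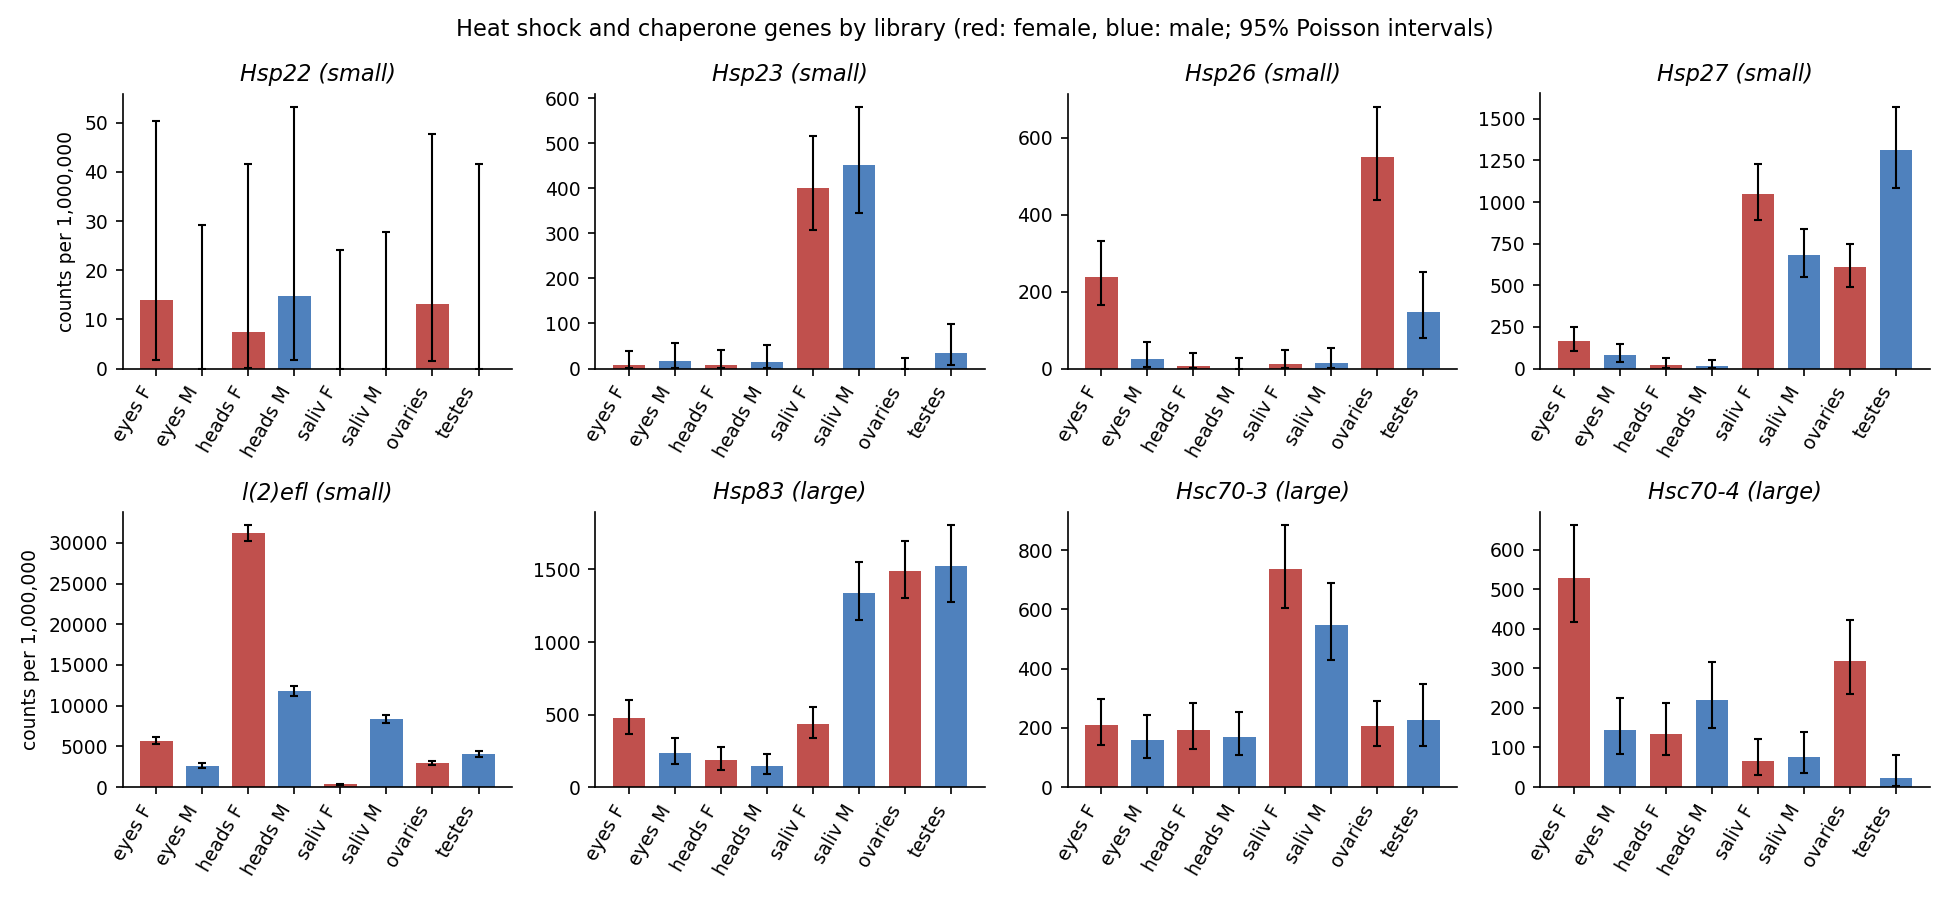
Level of each of the 8 genes (CPM) in each library, 1 panel per gene with its own scale; bars are the values of single libraries, red for female and blue for male, and error bars are exact 95% Poisson intervals. Hsp23 and Hsc70-3 peak in salivary glands, Hsp26 in ovaries, l(2)efl in female heads and Hsc70-4 in female eyes. Hsp27 and Hsp83 have their highest value in testes, within counting error of female salivary glands for Hsp27 and of ovaries for Hsp83.

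Set against each other, small heat shock genes held more counts than large chaperones in all 8 libraries. They made up 98.4% of the members' counts in female heads, with a 95% Wilson interval of 98.0 to 98.7, against 95.6% in male heads, with one of 94.6 to 96.5. The share was 83.5% in female eyes, 83.6% in male eyes, 82.8% in male salivary glands, 75.7% in testes, 67% in ovaries and 59.2% in female salivary glands (54.7 to 63.6). One gene set this order, since l(2)efl was 99.9% of the small heat shock counts in female heads and 18.3% in female salivary glands, where Hsp27 led instead.

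Without l(2)efl the order turned around. The 4 genes at 67B were 8.0% of the remaining counts in female heads (3.72 to 16.4) and 7.59% in male heads (3.53 to 15.6). They were 54.3% in female salivary glands (49.4 to 59.0), 45.7% in testes (40.0 to 51.4), 37.0% in male salivary glands, 36.8% in ovaries, 26.0% in female eyes and 18.1% in male eyes. Per length, on the deposited TPM scale, the share without l(2)efl was larger everywhere. It was 17.2% in heads of females, 22.0% in heads of males, 38.9% in male eyes, 50% in female eyes, 62.2% in ovaries, 65.6% in male glands, 68.6% in testes and 78.2% in female glands, so that which class was larger depended on the scale in male salivary glands, ovaries and testes. On both scales heads, highest with l(2)efl, were the lowest without it, and female salivary glands went from lowest to highest.

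**Figure D4:**
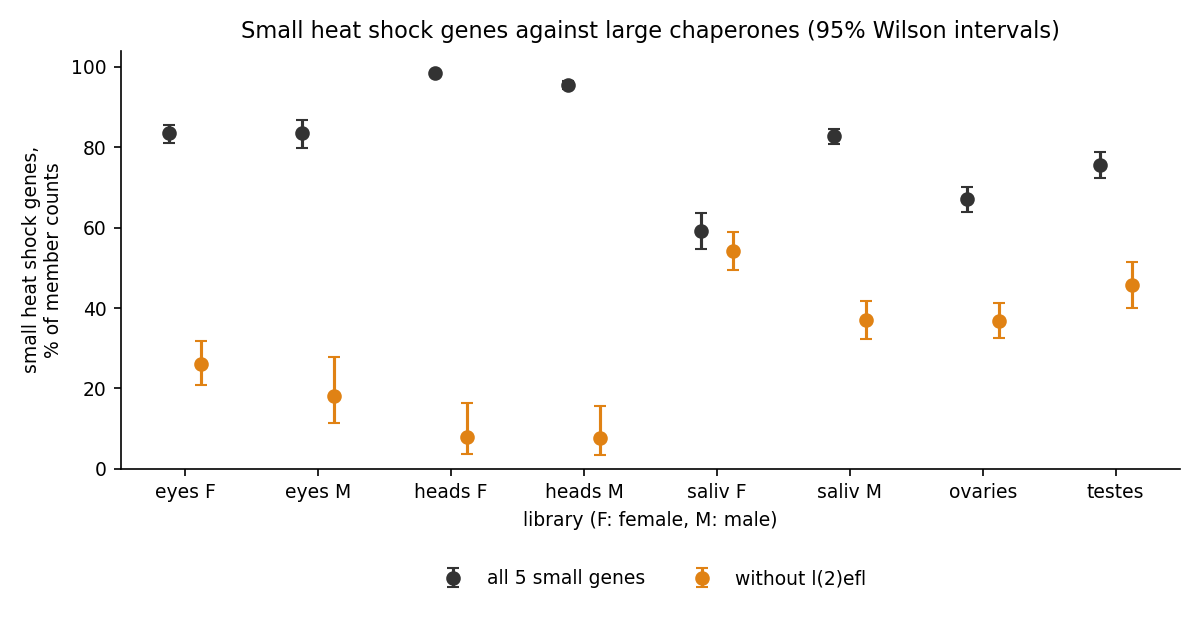
Percent of the members' estimated counts that came from small heat shock genes in each library, with all 5 small genes and without l(2)efl. Points are single libraries and error bars are 95% Wilson intervals. Female heads read 98.4% with l(2)efl and 8.0% without it.

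The leading large chaperone per length differed between libraries. Hsp83 led in testes with 445 TPM, ovaries with 357 TPM, male salivary glands with 377 TPM and male eyes with 86.2 TPM. Hsc70-4 led in female eyes with 187 TPM and in male heads with 96 TPM, and Hsc70-3 led in female salivary glands with 184 TPM. In female heads Hsp83 stood at 60.8 TPM, Hsc70-4 at 53 TPM and Hsc70-3 at 52.3 TPM, from 25, 18 and 26 counts. The 3 genes together ranged from 516 CPM in female heads to 2011 CPM in ovaries.

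Levels of different genes were set against each other on the deposited TPM scale, which divides by transcript length. Whether long reads need this division was not tested. On this scale l(2)efl reached 50649 TPM in female heads, more than any other member in any library. Hsp27, at 938 TPM, was above Hsp83 in testes, and Hsp23 at 516 TPM was above Hsp83 at 377 TPM in male salivary glands. By counts neither was above Hsp83, with 116 against 135 in testes and 60 against 178 in male salivary glands. In heads Hsp27 was below each large chaperone per length, at 12.9 TPM in females and 14 TPM in males against 52.3 to 96 TPM.

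Differences between tissues were tested in edgeR with eyes, heads and salivary glands of both sexes, as tissue plus sex, over 1316 genes. The salivary glands, whose stage is not given, held larval glue genes at 2.87% and 2.55% of counts. In comparisons with them a difference of tissue and any difference of stage cannot be told apart. The error of this fit is the deviation of each tissue from a sex difference shared by the tissues, not the spread between animals. Hsp22 and Hsp26 did not pass the filter on low counts, which left 6 of the 8 members, and Hsp23 passed it through the salivary gland libraries alone. Its higher level there is therefore given as a description, with no test, and 5 members are counted.

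Salivary glands against heads gave the largest number of member calls. Hsp27, Hsp83 and Hsc70-3 rose, 3 of 5 counted, while 13.7% of all genes tested were called higher and 27.0% in either direction. Pooled over the sexes, Hsp23 stood at 121 counts in glands and 3 in heads, a ratio per library total of 38.1 (12.7 to 187). Hsp27 stood at 251 and 5 counts, a ratio of 47.4 (20 to 147), with a fitted log2 change of 6.15 ± 0.803 (SE) and an edgeR adjusted p of 0.0111. Hsp27 was higher in glands than in heads in each sex, by 46.9-fold in females (15.7 to 229.6) and 46.3-fold in males (12.5 to 388).

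The fitted values of the large chaperones that rose were lower. Hsc70-3 rose by 2.49 ± 0.639 on the log2 scale (edgeR adjusted p = 0.0336), at 3.78-fold in females (2.45 to 6.04) and 3.23-fold in males (2.0 to 5.41) by library total. Hsp83 rose by 3.06 ± 0.881 (edgeR adjusted p = 0.0441), but at 2.32-fold in females (1.44 to 3.84) against 9.07-fold in males (5.7 to 15.2). Both calls were lost when libraries were scaled by their totals (edgeR adjusted p = 0.0678 for Hsc70-3 and 0.0739 for Hsp83), a scaling that moved the median of all genes from 0.14 to -0.53. Under it 116 genes were called higher and 276 lower in glands, against 180 and 175 in the TMM fit. The Hsp83 call was also lost without either head library or without male salivary glands (log2 values of 1.81 to 2.97, adjusted p = 0.223 to 0.452). That of Hsc70-3 was lost without any 1 of the head or salivary gland libraries (adjusted p = 0.0813 to 0.422), at log2 values of 1.99 to 2.64.

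Neither l(2)efl nor Hsc70-4 passed the test between salivary glands and heads. The fitted change of l(2)efl was -1.73 ± 1.58 (edgeR adjusted p = 0.428), and the sexes were far apart, with glands 95-fold below heads in females (71.9 to 128) and at 0.704 of heads in males (0.652 to 0.761). The fitted change of l(2)efl was -5.72 without male salivary glands and -4.46 without male heads, each with 1 library left of that tissue. Hsc70-4 was at -0.68 ± 0.847 (adjusted p = 0.56).

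Against eyes, Hsp27 rose in salivary glands, 1 of the 5 members counted, where 13.6% of all genes tested were called higher and 25.4% in either direction. Hsp23, again not counted, was at 121 counts against 3. Hsp27 was at 251 against 34, a ratio of 6.98 (4.86 to 10.3) and a fitted log2 change of 3.12 ± 0.668 (edgeR adjusted p = 0.0236). Hsp27 was not called without female salivary glands (2.89, adjusted p = 0.0792). Hsc70-3, the endoplasmic reticulum chaperone, had a fitted log2 value of 2.06 ± 0.63 with an adjusted p of 0.053. Hsp83 had 1.53 ± 0.856 (0.211), Hsc70-4 had -1.9 ± 0.869 (0.14) and l(2)efl 0.22 ± 1.6 (0.933). Eyes and heads were each compared with the same gland libraries, so the calls in both comparisons share them.

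Between eyes and heads 0 of the 6 tested members passed, and 0.0% of the 1316 genes tested did. At an unadjusted p under 0.05 there were 176 of all 1316 genes and 1 of the 6 members, Hsp27, whose log2 value was 3.04 ± 0.762 (edgeR adjusted p = 0.272). It held 24 and 10 counts in eyes against 3 and 2 in heads. DESeq2 called 0 members here as well, where it called 27 of the 1316 genes, and limma-voom called 0 members and 0 genes. When male eyes were left out, which leaves 1 eye library, the log2 values were 3.17 for Hsp27 and 2.17 for Hsp83. For l(2)efl the value was -1.95 ± 1.34 (adjusted p = 0.514), with 5.04-fold fewer counts per library total in eyes (4.73 to 5.37).

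**Figure D5:**
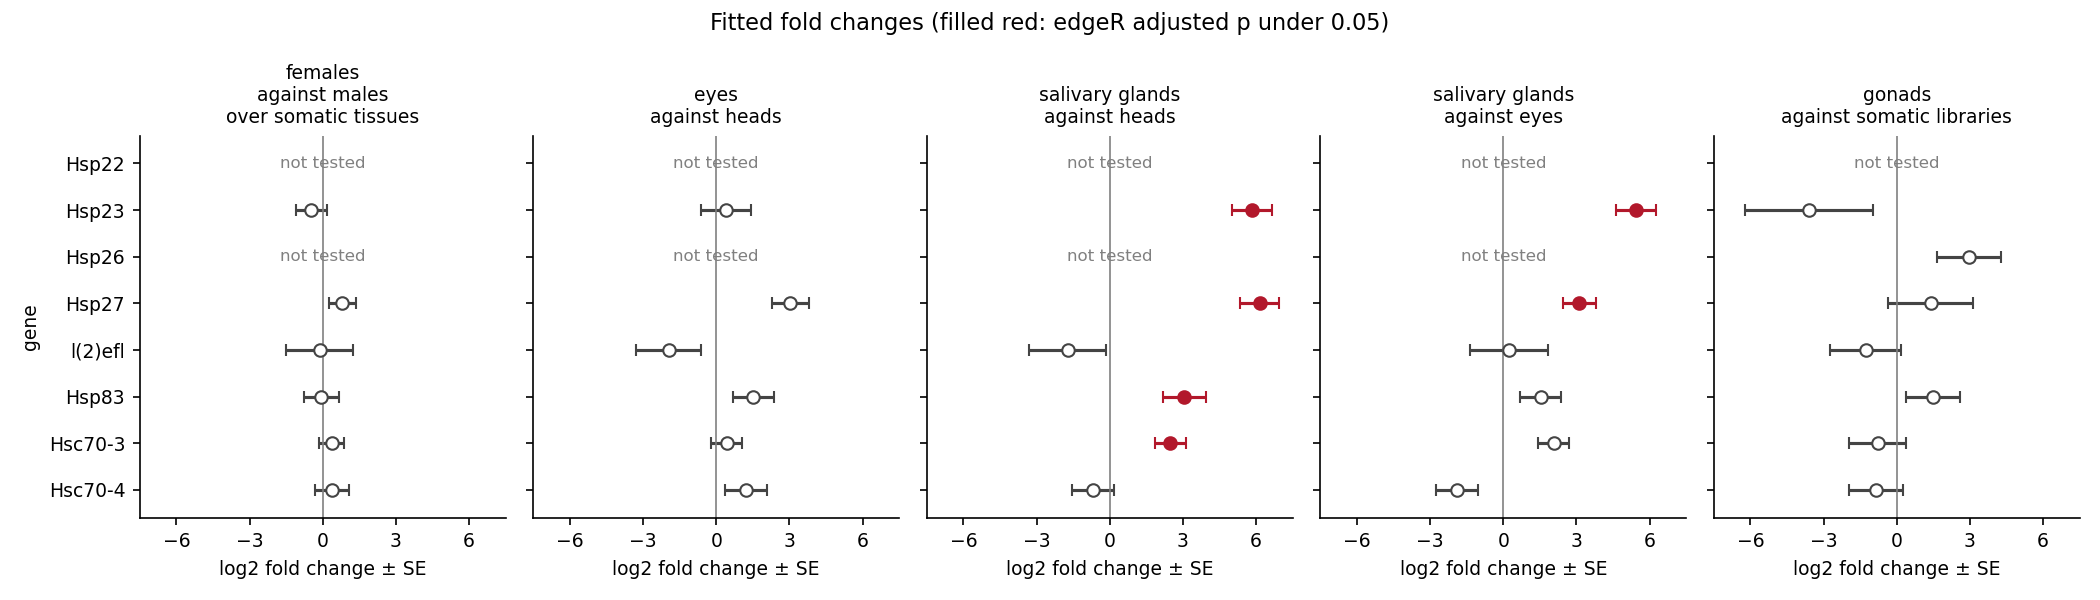
Fitted log2 fold change of each tested member in the 5 edgeR comparisons, with SE bars; filled red points passed an adjusted p of 0.05. Such points lie only in salivary glands against heads (Hsp23, Hsp27, Hsp83 and Hsc70-3) and against eyes (Hsp23 and Hsp27), and those of Hsp23, which entered through the gland libraries alone, are no test.

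No tested member passed between females and males over the 3 somatic tissues. The edgeR fit called 0 of 6 members and 0.0% of the 1316 genes tested. At an unadjusted edgeR p under 0.05 there were 0 members and 34 genes. DESeq2 called 0 members and 2 genes, and limma-voom 0 members and 0 genes. The fitted values ran from -0.46 ± 0.647 for Hsp23 to 0.81 ± 0.56 for Hsp27 (edgeR adjusted p of 0.963 to 0.995). Within single tissues, where no test is possible, 4-fold or more was used as the limit.

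In eyes 1 of the 6 members with 10 counts or more in a sex passed 4-fold, and 29.2% of 1283 genes did, with 16.2% of the 1283 higher in females. This was Hsp26, with 34 counts in the female and 3 in the male library, a ratio of 9.94 (3.12 to 50.6). The female library was also higher for Hsc70-4 at 3.7-fold (2.19 to 6.58), l(2)efl at 2.16-fold (1.9 to 2.47) and Hsp83 at 1.99-fold (1.28 to 3.16). The eggshell share was 8.35% in the female and 0.0238% in the male eye library, the digestive enzyme share 0.537% and 0.00238%, and their part in these ratios was not tested. The intervals of Hsp27 (0.97 to 4.93) and Hsc70-3 (0.722 to 2.44) took in equality.

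In heads none of the 4 members with enough counts passed 4-fold, where 9.99% of 1351 genes did, 5.03% higher and 4.96% lower in females. Only l(2)efl had an interval away from equality, at 2.65-fold more in females. The female and male values of Hsp83 (ratio 1.27, 0.675 to 2.4), Hsc70-3 (1.15, 0.628 to 2.1) and Hsc70-4 (0.608, 0.319 to 1.13) were within counting error.

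In salivary glands the male library held 25.3-fold more l(2)efl than the female (19.0 to 34.3), 1105 counts against 50, and it was the 1 of 6 members past 4-fold, where 9.44% of 1017 genes were past it and 7.18% were 4-fold lower in females. Muscle markers were 0.489% of counts in the male and 0.0591% in the female library. Hsp83 was 3.09-fold higher in the male library (2.31 to 4.16), and Hsp27 was higher in the female one at 1.54-fold (1.18 to 2.01). Hsp23 (ratio 0.888, 0.612 to 1.29), Hsc70-3 (1.34, 0.99 to 1.83) and Hsc70-4 (0.874, 0.326 to 2.34) were within counting error.

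Ovaries and testes differed by 4-fold or more in 1 of 6 members, whereas 52.8% of 1681 genes did, 18.9% toward ovaries and 33.9% toward testes. Hsc70-4 held 48 counts in ovaries and 2 in testes, a ratio of 14 (3.68 to 119). Hsp26 was 3.74-fold higher in ovaries (2.07 to 7.31). Hsp27 was 2.15-fold higher in testes (1.62 to 2.86) and l(2)efl 1.39-fold (1.2 to 1.6). Hsp83, at a ratio of 0.975 (0.785 to 1.22), and Hsc70-3, at 0.907 (0.501 to 1.68), were within counting error. CG14207, outside the set, was 6.02-fold higher in ovaries (5.22 to 6.97). Scaling by DESeq2 size factors lowered every ovary to testis ratio of the members, to 9.04 for Hsc70-4, 2.41 for Hsp26, 0.628 for Hsp83, 0.584 for Hsc70-3, 0.464 for l(2)efl and 0.299 for Hsp27.

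In the edgeR fit of gonads against all somatic libraries 0 of 7 members passed, and 0.0% of 1579 genes tested were called. The error of this fit is the spread among the somatic tissues and between ovaries and testes, so 0 calls do not show equal levels. At an unadjusted edgeR p under 0.05 there were 0 members and 201 of the 1579 genes. DESeq2 called 0 members, where it called 94 of the 1579 genes. By limma-voom 0 members and 0 genes were called, with Hsp26 among 158 of the 1579 genes at an unadjusted p under 0.05. Hsp26 had the highest value at 2.95 ± 1.32 (edgeR adjusted p = 0.379), followed by Hsp83 at 1.5 ± 1.11 (0.483) and Hsp27 at 1.39 ± 1.73 (0.699). Hsp23, with 0 and 3 counts in gonads, had the lowest fitted value, and female eyes, with 34 Hsp26 counts, were among the somatic libraries.

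Most members were read from more than 1 annotated transcript, but reads averaged 524 to 648 bases, shorter than the transcripts of the large chaperones, so shares by transcript are the authors' estimates. Of the l(2)efl counts, transcript RC accounted for 10.2% in heads of females and 10.1% in those of males, 16.1% in female and 20.9% in male eyes, 16% in male salivary glands, 27.2% in ovaries and 20% in testes. It took 0 in female salivary glands, the library with 50 counts of the gene. The l(2)efl transcripts are 738 and 741 bases long.

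For Hsp27, transcript RA took 78.7% to 97.5% in the 6 libraries with 10 counts or more. For Hsp26, transcript RA took 62.1% in female eyes and 50.8% in ovaries against 14.5% in testes, from 34, 83 and 13 counts of the gene. Hsc70-3 was assigned wholly to transcript RC in female eyes and ovaries and wholly to RB in male eyes and testes, each with 20 to 31 counts. Such complete switches at low counts are estimates, since these transcripts share exons.

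Other chaperones were read through lists of 70 genes, of which 12 passed the filter of the somatic fit. In salivary glands against heads Pdi, Gp93 and ninaA are not counted, for the reason given below. Of the rest CaBP1 and Calr were called, both higher, where 13.7% of all genes tested were called higher and 13.3% lower. The median log2 change of all 12 was 0.4 against 0.14 over all genes tested. Pdi passed the filter through the gland libraries alone, ninaA through eyes and heads alone, and Gp93 reached 10 counts outside the glands only in female heads. Their calls are therefore given as descriptions, with no test, and the medians also hold genes that entered in this way. CaBP1 (3.69 ± 0.941, edgeR adjusted p = 0.0336) and Pdi are disulfide isomerases of the endoplasmic reticulum, where Hsc70-3 also works. Pdi held 30 and 20 counts in female and male salivary glands and 1 to 5 in each eye and head library. Gp93, the Hsp90 of that compartment, held 42 and 47 counts in female and male salivary glands and 2 to 15 in each eye and head library. Calr, the lectin chaperone calreticulin, rose by 2.44 ± 0.688 (edgeR adjusted p = 0.0422). The gene that fell was ninaA, a rhodopsin chaperone of photoreceptors, with 0 counts in both salivary gland libraries against 73 and 97 in heads.

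Against eyes CaBP1 was the only counted gene that was called, where 13.6% of all genes tested were called higher and 11.8% lower. CaBP1 rose by 2.98 ± 0.887 (edgeR adjusted p = 0.0498). The calls of Pdi and Gp93, higher, and of ninaA, lower, are again descriptions with no test. The median of the 12 was 2.04, against -0.08 over all genes tested. In the endoplasmic reticulum list alone, 6 of 12 genes were tested, Pdi and ninaA among them. Their median was 2.3 against heads and 2.2 against eyes. The other fits called 0 of the listed genes. The heat-inducible Hsp70 genes themselves were low, with at most 5 counts in any library for each copy and at most 1 for Hsp68.

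The genes outside the set whose pattern was most like that of the summed small heat shock genes, by Pearson's r of log2(CPM + 20) over 8 libraries and 1123 genes, were wupA (0.913), which encodes troponin I, Act87E (0.86), an actin gene, Vha36-3 (0.843), CG5282 (0.836) and phu (0.821). For the summed large chaperones they were pch2 (0.921), ZnT86D (0.915), sel (0.866), Ssrp (0.86) and eIF2A (0.858). These are descriptions over 8 points that share depth and tissue differences. No gene was in both lists. Outside female salivary glands, l(2)efl alone made up 71.4% to 99.9% of the small heat shock counts. Without l(2)efl, sel, ZnT86D and pch2 were in both lists.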

How the data were processed

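Long-read cDNA enriched for qtc was counted in 8 libraries, 1 a group, grouped by tissue and sex in the labels. The authors deposited estimated counts for 31089 transcripts, which need not be whole, and TPM, corrected for length. They also deposited whole-number counts of reads per library: 262332 to 334257 in total and 90780 to 156627 after a filter whose settings the sources used here do not give. Other read statistics in that deposited table, such as mean read length, were used only to describe the libraries. Per the submitters' processing notes, the tools were minimap2, Salmon and edgeR and the build was BDGP6, with no versions or roles. The sources used here do not say how overlapping genes and strands were counted.

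Transcripts were matched to the BDGP6 annotation (Ensembl release 115). The 41 unmatched ones, with 0.0938% to 0.535% of counts, stayed out. Rows named as rRNA took 1.94% (ovaries) to 23.9% (female eyes) of counts and qtc 0.333% to 2.63%, and both stayed in unless stated. Gene sums were rounded to whole numbers and tested in edgeR 4.0.16 with R 4.3.3 (TMM, robust quasi-likelihood F test, filterByExpr at a minimum count of 10, Benjamini-Hochberg at 0.05). Tissue plus sex over 6 somatic libraries left 2 residual degrees of freedom, and gonad or somatic plus sex over 8 libraries left 5. DESeq2 1.42.0, limma-voom (limma 3.58.1), other scalings, no filter, no sex term and leaving out each library were alternatives. In the somatic fit, leaving out a library left 1 library of its tissue, so such runs hold no spread of that tissue. The fits were tested on simulated data. Intervals of single libraries and of their ratios are exact Poisson, exact binomial or Wilson at 95%.

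The members and the lists of chaperones and markers were chosen with earlier results of these data known. Of the list symbols, 5 did not match. Named genes are all members, the listed chaperones past the threshold or of highest mean CPM in their list, the most counted marker of a list, and the 5 most alike non-members; Hsp67Ba, Hsp67Bc, CG4461, the overlapping genes and Mhc were added after their values were seen.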

Additional observations from a re-analysis of the deposited data

Results flagged for a closer look

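The female to male ratio of l(2)efl went in opposite directions between tissues. It was 2.16 in eyes and 2.65 in heads, with the female library higher, and 0.0395 in salivary glands, with the male library higher. The muscle share of the female and male libraries was 0.186% and 0.765% in eyes, 4.32% and 2.68% in heads, and 0.0591% and 0.489% in salivary glands, so it went with l(2)efl in heads and salivary glands and against it in eyes. Hsp83 had a ratio of 1.99 in eyes and 0.324 in salivary glands. With 1 library for each tissue and sex the difference between tissues was not tested for either gene.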

How the results depend on the processing

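No paired analysis was possible because each group has 1 library and the labels give no replicate numbers. By setting, in place of TMM edgeR, the numbers of genes called were as follows. Females against males went from 0 (34 at an unadjusted p under 0.05) to 1 with DESeq2 size factors, 2 by the DESeq2 Wald test, 9 without a filter, and 6 to 33 when a library was left out. Eyes against heads went from 0 (176 unadjusted) to 3, 27 and 38 in the same settings, and 0 to 194. Gonads against somatic libraries went from 0 to 94 by DESeq2 and 173 without a filter, and 0 to 67. Salivary glands against heads ranged from 185 to 739 around 355 and salivary glands against eyes from 232 to 558 around 334 when a library was left out. The split into higher and lower moved with scaling: against eyes from 179 and 155 to 151 and 194 with library totals, 185 and 237 with DESeq2 size factors and 100 and 161 without rRNA-named and qtc rows, and against heads to 159 and 255 and to 114 and 201 in the latter pair.

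The share of small heat shock genes on the TPM scale was 95.9%, 96.3%, 99.7%, 99.1%, 83.4%, 96.1%, 89.8% and 93.4% in female eyes, male eyes, female heads, male heads, female salivary glands, male salivary glands, ovaries and testes. Of the counts, the share without Hsp83 was 89.2%, 90.1%, 99.0%, 96.8%, 69.1%, 93.8%, 88.7% and 95.7% in that order, and without l(2)efl 26.0%, 18.1%, 8.0%, 7.59%, 54.3%, 37.0%, 36.8% and 45.7%.

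Of the members' fitted log2 changes, those of Hsp23 included, 370 kept direction and side of the threshold, 13 lost a call, 7 gained one and 19 reversed, and the cause was not tested. The Hsp23 calls in salivary glands against heads and against eyes were kept in every run. They are among the 370 and are no measure of stability. For l(2)efl, the values without 1 library ran from -1.92 to 1.32 in females against males (1.31 and 1.32 without female or male salivary glands), from -3.8 to 0.06 in eyes against heads (0.06 without female heads), and from -3.79 to 1.62 in salivary glands against eyes (-1.54, -1.13, -1.14 and -3.79 without male eyes, female heads, male heads or male salivary glands). In the last it was also -0.13 with DESeq2 size factors and by the Wald test, -0.05 with library totals, -0.17 without rRNA-named and qtc rows and -0.85 by limma-voom. In females against males Hsp83 ran from -0.67 to 0.74 (0.72 and 0.74 without female or male salivary glands), and Hsc70-4 was -0.42 without either eye library. In eyes against heads Hsc70-4 ran from -0.04 (without female eyes) to 2.21 and Hsp23 from -0.15 (without male eyes) to 0.82. Hsp27 in gonads against somatic libraries ran from -0.29 (without testes) to 3.29. Of the 2-library ratios 58 moved by less than their interval and 8 by more. Hsc70-3 crossed equality in female against male eyes with DESeq2 size factors (0.974) and in heads by TPM (0.994), from 1.32 and 1.15. Calls gained were l(2)efl in salivary glands against heads (without male heads or male salivary glands), Hsp27 and Hsp83 in eyes against heads (without male eyes), Hsc70-3 in salivary glands against eyes (2.04 by limma-voom and 2.06 without a sex term) and Hsc70-4 there (-2.81, without male eyes). Those gained by leaving out a library rest on 1 library of that tissue. Hsc70-3 in salivary glands against heads was lost also without a filter (2.33, adjusted p = 0.0897) and without rRNA-named and qtc rows (2.06, 0.0552), as was Hsp83 in the latter (2.64, 0.0704). Hsp27 against heads was called under every setting and leave-out run. Hsp23 entered the fits through the gland libraries alone, so its calls are not read.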

Other observations

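Hsp60C, a mitochondrial chaperonin of the Hsp60 family, held 78 counts in testes, 3 in female heads, 1 in female eyes and 0 in the other 5 libraries. CG11267, of the same list, held 28 counts in ovaries, 11 in female eyes, 2 each in female heads, male heads and male salivary glands, and 0 in male eyes, female salivary glands and testes. CCT7 and CCT2, subunits of the cytosolic chaperonin, held 10 and 15 counts in ovaries and 19 and 18 in female eyes, against at most 8 in any other library. The share of eggshell genes in ovaries and female eyes was 15.9% and 8.35%, and its part in these values was not tested.

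Among the J proteins, partners of Hsp70, Tpr2 held 38 counts in testes and at most 10 elsewhere. CG2790 held 17 in ovaries, 14 in testes, 12 in male heads, 10 in female heads and 1 to 8 elsewhere. Of the Hsp90 cochaperones p23 held 101 counts in ovaries, 46 in female eyes and 6 to 26 elsewhere, and Hsp110 10 to 41. None of these genes passed the edgeR test between gonads and somatic libraries, which called 0 of 1579 genes at an adjusted p of 0.05 and 201 at an unadjusted p under 0.05, and 94 by DESeq2.

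Without l(2)efl, a choice made after the values were seen, the small heat shock genes were most like sel (Pearson r = 0.957), CG13551 (0.885), ZnT86D (0.882), CR43482 (0.858) and pch2 (0.851) over the 8 libraries, and 3 of these, sel, ZnT86D and pch2, were also among the 5 most like the summed large chaperones.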
